A study of Prunus armeniaca and Prunus mume with 8 samples.

Results

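Dehydrins and abscisic acid responsive proteins were followed in fruit of Japanese apricot (Prunus mume) and of apricot (Prunus armeniaca). The 5 probes described here are those whose deposited description named a dehydrin, an abscisic acid response or an abscisic stress protein, out of 10384 probes on the array. They stood for 5 different sequence entries with 1 spot each. They were 2 dehydrins (DQ061115.1, cloned from Prunus dulcis, almond, and U34809.1, from Prunus persica, peach), dehydrin 2 of peach (AY465376.1), the abscisic acid response protein rab21 of almond (AF172263.1) and an abscisic stress ripening-like protein of peach (AF317062.1, called ASR-like below). No description matched a late embryogenesis or a water stress protein outside these 5.

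Dehydrins are very hydrophilic proteins that belong to the late embryogenesis abundant proteins. Plants accumulate them when cells lose water, in maturing seeds and under drought, cold or salt, and many are switched on by the hormone abscisic acid. The rab genes were named for their response to abscisic acid, and in rice rab21 codes for a dehydrin. ASR proteins are a separate family of small hydrophilic proteins, first described in tomato, that respond to abscisic acid and water stress and are also found in ripening fruit.

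RNA from fruit was labelled with Cy3 and hybridised to 8 one-colour Agilent arrays on 1 slide, 2 for each of 4 cultivars. P. mume was represented by Ruantiaohongmei and Xiyeqing. P. armeniaca was represented by Manao and Zhenkui. Every array carried RNA of mixed stages, drawn from stages 1 to 8 that were picked between weeks 3 and 13 after full bloom, and the labels do not give the stages behind each array. They also do not tie replicate arrays to separate trees or harvests. The p-values below thus measure only the spread between these arrays, which may be technical, and it may also hold a difference in stage, which was not tested.

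The scanner software marked 7806 to 8982 probes as well above background, depending on the array. The 2 arrays of a cultivar correlated at r = 0.969 to 0.992 across probes, and arrays of different species at 0.878 to 0.927. All 5 probes were well above background on all 8 arrays, with spots 102.7 to 15310 times as bright as their local background, and none of their 40 spots was saturated. Signals are given as log2 of the processed scanner signal minus the array's 75th percentile. A probe as bright as that percentile has a signal of 0, and signals are compared only within a probe. The seed marker oleosin (AY962832.1), the 1 seed probe with a description, was well above background on 4 P. mume arrays and 1 P. armeniaca array, at -3.62 ± 3.29 in P. mume and -5.71 ± 0.53 in P. armeniaca (SD, n = 4 each). Seed RNA in fruit samples matters for this family, and its part in the values below was not tested. Of the 22 measured probes for fruit flesh enzymes (ACC oxidases, expansins, beta-galactosidases and an endo-polygalacturonase), 21 were well above background on all 8 arrays.

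The members were selected on values from these same arrays, the authors' fold differences between species and between cultivars. Descriptions were deposited only for probes in the authors' lists of at least 2-fold difference, so the differences between species and between single cultivars of different species are described here without a test. In the authors' deposited tables DQ061115.1 and U34809.1 were listed in 5 of 7 comparisons, rab21 in 4, and dehydrin 2 and the ASR-like protein in 2 each. DQ061115.1, U34809.1 and rab21 were listed in the comparison of the whole species. Dehydrin 2 entered only through Manao against each P. mume cultivar, where the authors' deposited table gave 2.03-fold over Ruantiaohongmei and 2.39-fold over Xiyeqing. The ASR-like protein entered only through Zhenkui, at 2.37-fold higher in Ruantiaohongmei and 2.34-fold higher in Xiyeqing in the authors' deposited table. Just outside the 2-fold bound was its difference of Manao over Zhenkui, 1.99-fold in the authors' deposited table.

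The 3 dehydrins and rab21 had lower mean signals in P. mume than in P. armeniaca, and the ASR-like protein had a higher one. The median difference of the 5 probes was -1.31 on the log2 scale, against -0.11 over all 9125 tested probes. For 2 of the 5 the arrays of the species did not overlap, both lower in P. mume, where 23.6% of all tested probes had all 4 P. mume arrays below all 4 P. armeniaca arrays and 39.9% were apart in either direction. The share among the members is set by how they were chosen. In bulk fruit RNA, fewer cells that make a transcript and less transcript per cell cannot be told apart.

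The almond dehydrin DQ061115.1 differed most between species among the 5. Its signals were 3.65 and 4.35 in Ruantiaohongmei and 4.38 and 3.83 in Xiyeqing. In P. armeniaca they were 6.31 and 6.35 in Manao and 6.27 and 5.37 in Zhenkui. All P. mume arrays lay below all P. armeniaca arrays with a gap of 0.99, and Zhenkui replicate 2 was the lowest array of its species. The means were 4.05 ± 0.37 in P. mume and 6.07 ± 0.47 in P. armeniaca (SD, n = 4 each), a difference of -2.02, or 4.07-fold lower in P. mume. As processed scanner signals before scaling, that is 5399 to 11418 in P. mume and 17170 to 50846 in P. armeniaca.

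The peach dehydrin U34809.1 gave the same order of species with a smaller gap. It stood at 5.16 and 6.00 in Ruantiaohongmei and at 5.75 and 5.44 in Xiyeqing. Manao had 6.96 and 7.10, and Zhenkui 7.20 and 6.36. The species did not overlap, with 0.36 between Ruantiaohongmei replicate 2 and Zhenkui replicate 2. The means were 5.59 ± 0.37 in P. mume and 6.90 ± 0.37 in P. armeniaca (SD, n = 4 each), 2.49-fold lower in P. mume.

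Dehydrin 2 (AY465376.1), described in peach as responding to loss of water, differed least among the 4 probes lower in P. mume. Its signals were 2.68 and 4.59 in Ruantiaohongmei and 3.57 and 3.07 in Xiyeqing. In Manao they were 4.64 and 4.60, and in Zhenkui 4.64 and 3.35. The species overlapped: Ruantiaohongmei replicate 2 was nearly as bright as 3 of the P. armeniaca arrays, and Zhenkui replicate 2 was below 2 P. mume arrays. The means, 3.47 ± 0.82 in P. mume and 4.31 ± 0.64 in P. armeniaca (SD, n = 4 each), differed by -0.83, about the spread between arrays of one species.

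Rab21 (AF172263.1) followed dehydrin 2 from array to array. It was measured at 2.50 and 4.28 in Ruantiaohongmei and at 3.30 and 2.83 in Xiyeqing. Manao had 5.01 and 4.81, and Zhenkui 5.06 and 3.80. The only overlap was between Ruantiaohongmei replicate 2 and Zhenkui replicate 2, and the means were 3.23 ± 0.77 in P. mume and 4.67 ± 0.59 in P. armeniaca (SD, n = 4 each), 2.72-fold lower in P. mume. Without Zhenkui replicate 2, all 4 dehydrin and rab21 probes were below every P. armeniaca array in P. mume (26.1% of all tested probes were). Without Ruantiaohongmei replicate 2 the same held for 3 of them, all but dehydrin 2 (25.2% of all tested probes). These 2 arrays made the overlap of rab21, and the members were chosen on differences between these arrays. Nothing is thus read from the members against those shares.

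The ASR-like protein (AF317062.1) ran the other way. Ruantiaohongmei had 9.76 and 9.27 and Xiyeqing 8.88 and 9.81, while Manao had 8.92 and 8.84 and Zhenkui 8.27 and 7.64. Manao replicate 1 was just above Xiyeqing replicate 1, the only overlap between species, and both Zhenkui arrays lay below all others. The means were 9.43 ± 0.44 in P. mume and 8.42 ± 0.59 in P. armeniaca (SD, n = 4 each), 2.02-fold higher in P. mume. The order of the cultivar means was Ruantiaohongmei (9.51 ± 0.35), Xiyeqing (9.34 ± 0.66), Manao (8.88 ± 0.06) and Zhenkui (7.95 ± 0.44), SD, n = 2 each, with arrays that overlapped between Ruantiaohongmei and Xiyeqing and between Xiyeqing and Manao.

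**Figure D1:**
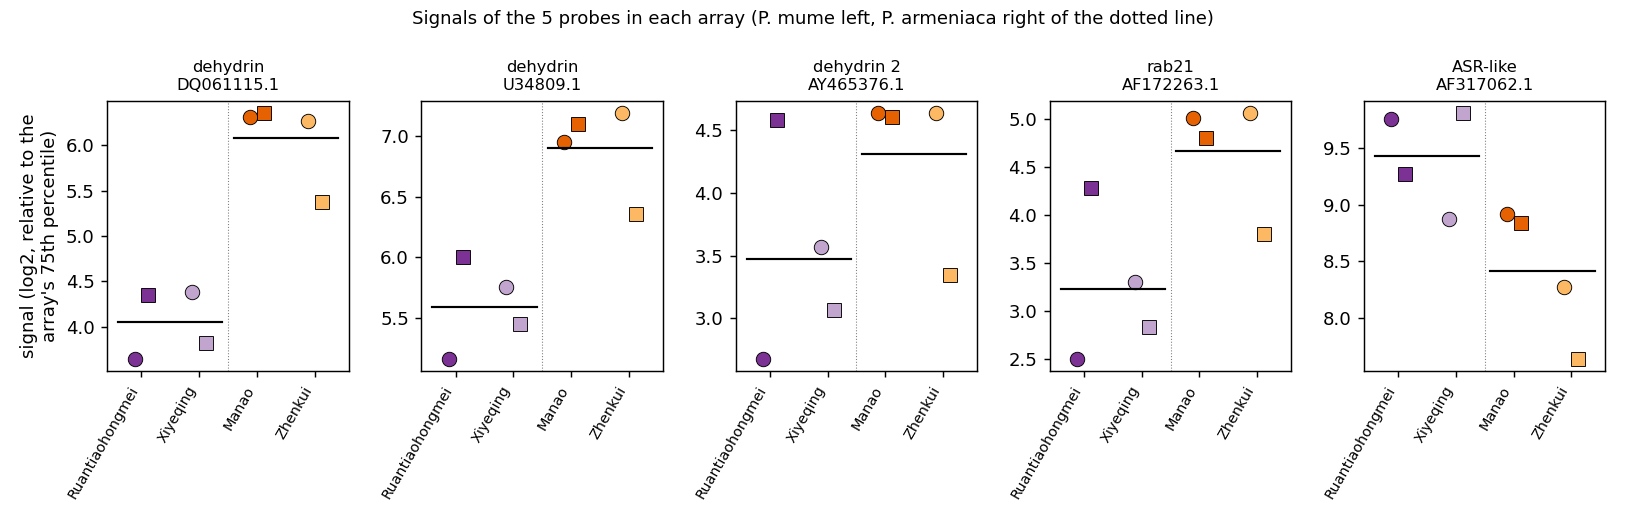
Signal of each probe on each array, as log2 relative to the array's 75th percentile, with circles for replicate 1 and squares for replicate 2. Horizontal lines are species means of 4 arrays. The dehydrins DQ061115.1 and U34809.1 separate the species, dehydrin 2 and rab21 overlap through Ruantiaohongmei replicate 2 and Zhenkui replicate 2, and the ASR-like protein is lowest in Zhenkui. Vertical scales differ between panels.

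Each slide row held 1 cultivar of each species, so a row effect cancels in the difference within a row. A slide column effect does not, since the species lay in different columns of a row. In row 1, Ruantiaohongmei minus Manao was -2.33 for DQ061115.1, -1.45 for U34809.1, -0.99 for dehydrin 2, -1.52 for rab21 and 0.64 for the ASR-like protein. In row 2, Xiyeqing minus Zhenkui was -1.72, -1.18, -0.68, -1.37 and 1.39 for the same probes in that order. Each probe kept its direction in both rows. The authors' lists that gave the members include these pairs, so this shared direction is partly set by how the members were chosen. Across rows, with arrays shared with the pairs above, the dehydrin and rab21 differences ranged from -1.82 (DQ061115.1) to -0.36 (dehydrin 2) for Ruantiaohongmei minus Zhenkui, and from -2.23 (DQ061115.1) to -1.30 (dehydrin 2) for Xiyeqing minus Manao. For the ASR-like protein they were 1.56 over Zhenkui in Ruantiaohongmei and 0.47 over Manao in Xiyeqing. In the authors' deposited log2 differences its distance from Manao was smaller, with Manao over Ruantiaohongmei at -0.25 and Manao over Xiyeqing at -0.24. The difference of the ASR-like protein was thus larger against Zhenkui than against Manao in both P. mume cultivars, whereas those of the dehydrins and rab21 were larger against Manao. The ASR-like protein became a member only through its pairs with Zhenkui, and dehydrin 2 only through pairs with Manao. For both probes the order is thus set in part by the choice. Without Zhenkui replicate 2 the order turned for U34809.1, rab21 and dehydrin 2 (Manao minus Zhenkui of -0.17, -0.16 and -0.02), and for DQ061115.1 Manao minus Zhenkui was 0.07.

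**Figure D2:**
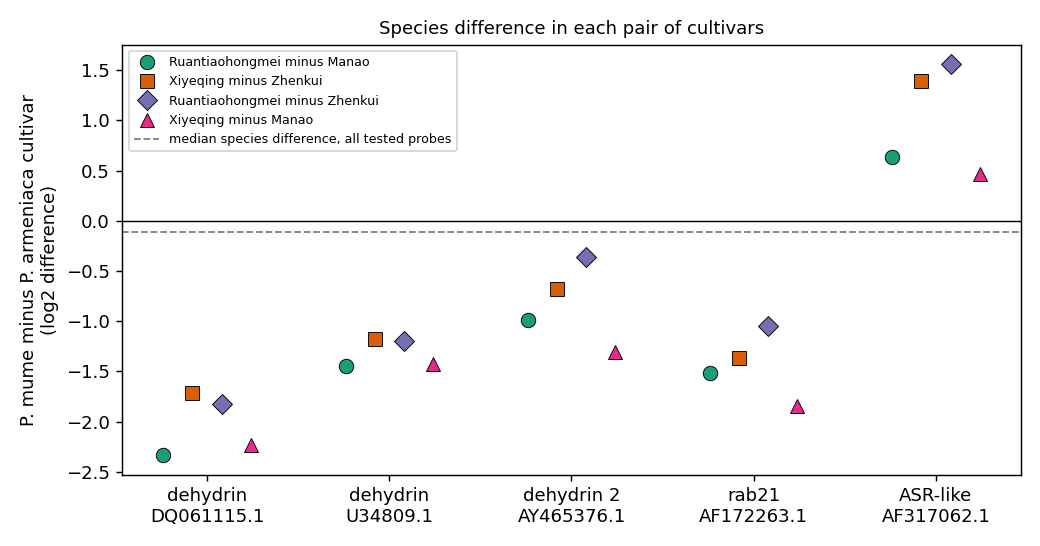
Difference of cultivar means, P. mume minus P. armeniaca on the log2 scale, for the 4 pairs of cultivars, each mean over 2 arrays. The dashed line is the median species difference of all tested probes (-0.11). The 4 dehydrin and rab21 probes are below it in every pair and the ASR-like protein above 0 in every pair. The pairs share arrays, and the members were chosen on differences of at least 2-fold in such pairs. Their distance from the line is set in part by that choice.

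Cultivars of one species were then compared, which asks whether these proteins vary within a species. This contrast does not enter the pooled species difference, so it was tested for the 3 probes that the authors' deposited species list holds, with limma (Benjamini-Hochberg adjustment over all 9125 tested probes). None of the 3 passed the threshold in either species, nor an unadjusted p of 0.05. The cultivars of each species lay in different slide rows and columns, so cultivar and array position cannot be told apart in these contrasts. Between the P. mume cultivars, 0.592% of all probes were called. Ruantiaohongmei minus Xiyeqing was -0.10 for DQ061115.1 (95% interval -0.999 to 0.790, adjusted p = 0.996 by limma), -0.02 for U34809.1 (-0.90 to 0.86, adjusted p = 0.999 by limma) and 0.32 for rab21 (-1.14 to 1.78, adjusted p = 0.986 by limma).

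Between the P. armeniaca cultivars, limma called 0 of 9125 probes (0%), while 1022 had an unadjusted p under 0.05. Manao minus Zhenkui was 0.51 for DQ061115.1 (95% interval -0.38 to 1.41, adjusted p = 0.619 by limma), 0.25 for U34809.1 (-0.63 to 1.13, adjusted p = 0.817 by limma) and 0.47 for rab21 (-0.98 to 1.93, adjusted p = 0.792 by limma). Without Zhenkui replicate 2 these differences were 0.07, -0.17 and -0.16, so the direction of the last 2 turned. The intervals still leave room for differences of about 2-fold or more in either contrast.

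The 2 probes outside the species list entered through single cultivars, so they have values only. Dehydrin 2 was 0.31 higher in Ruantiaohongmei than in Xiyeqing and 0.63 higher in Manao than in Zhenkui (-0.02 without Zhenkui replicate 2). The ASR-like protein was 0.17 higher in Ruantiaohongmei than in Xiyeqing and 0.92 higher in Manao than in Zhenkui (0.61 without Zhenkui replicate 2), with both Manao arrays above both Zhenkui arrays.

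Whether the species difference depended on the cultivar pair was tested as the row 1 difference minus the row 2 difference. It was -0.62 for DQ061115.1 (95% interval -1.88 to 0.65, adjusted p = 0.827 by limma), -0.27 for U34809.1 (-1.51 to 0.97, adjusted p = 0.936 by limma) and -0.15 for rab21 (-2.21 to 1.91, adjusted p = 0.978 by limma). None was called, where 0.197% of all tested probes were. An added effect of slide row cancels in this contrast, but an effect of slide column does not. P. mume lay in the later columns in row 1 and in the earlier columns in row 2. Cultivar pair cannot be told apart here from slide column, nor from a species difference that changes with row.

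**Figure D3:**
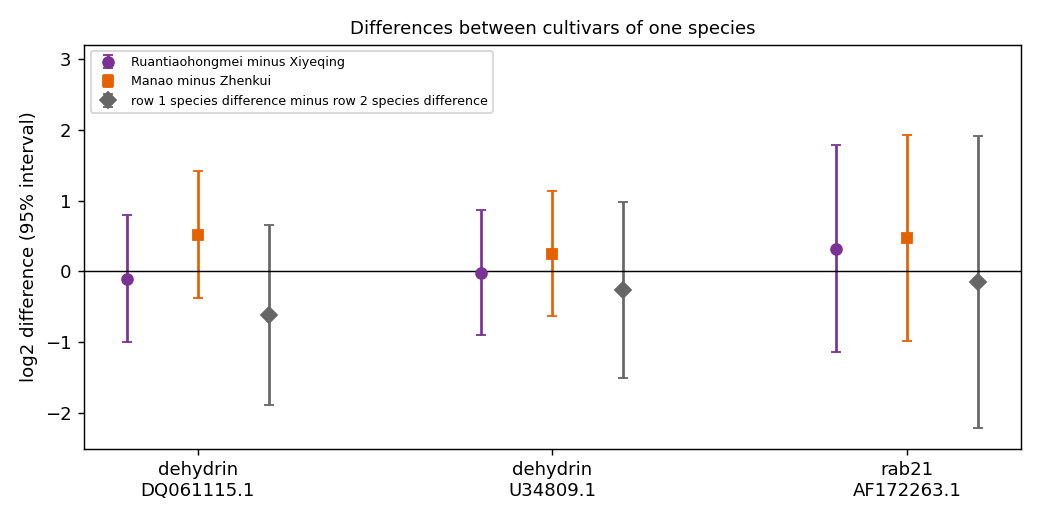
Log2 differences with 95% intervals from limma for the 3 probes of the deposited species list: Ruantiaohongmei minus Xiyeqing, Manao minus Zhenkui, and the row 1 minus the row 2 species difference. Every interval includes 0, and those of rab21 are the widest. Cultivar and array position on the slide cannot be told apart in these contrasts.

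The arrays of one cultivar differed for these probes in a pattern that the dehydrins and rab21 shared. In Ruantiaohongmei replicate 2 was above replicate 1 for all 4, by 0.70 for DQ061115.1, 0.84 for U34809.1, 1.91 for dehydrin 2 and 1.78 for rab21. In Zhenkui replicate 2 was below replicate 1, with differences of -0.89, -0.83, -1.29 and -1.26 in the same order of probes. These are large steps for dehydrin 2 and rab21. In Ruantiaohongmei 1.94% and 2.47% of all tested probes were at least as far apart between the 2 arrays, and in Zhenkui 3.73% and 4.01%. The steps of DQ061115.1 and U34809.1 were more common, with shares of 21.2% and 16% in Ruantiaohongmei and 9.32% and 11.1% in Zhenkui. Manao was the cultivar with the closest arrays, with the 4 probes between -0.20 and 0.15, and in Xiyeqing the 4 lay between -0.55 and -0.31. The median size of this step over all tested probes was 0.34 in Ruantiaohongmei, 0.34 in Xiyeqing, 0.18 in Manao and 0.32 in Zhenkui.

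The ASR-like protein moved differently between arrays. Replicate 2 minus replicate 1 was -0.49 in Ruantiaohongmei, 0.93 in Xiyeqing, -0.08 in Manao and -0.63 in Zhenkui. It was opposite to the dehydrins in Ruantiaohongmei and Xiyeqing and went with them in Zhenkui, where all 5 probes were lower in replicate 2. The 2 arrays of Ruantiaohongmei also differed in how many probes were well above background, 8542 in replicate 1 and 7806 in replicate 2, and those of Zhenkui in the same way, 8816 and 8499. The part of signal quality or fruit stage in these steps was not tested.

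**Figure D4:**
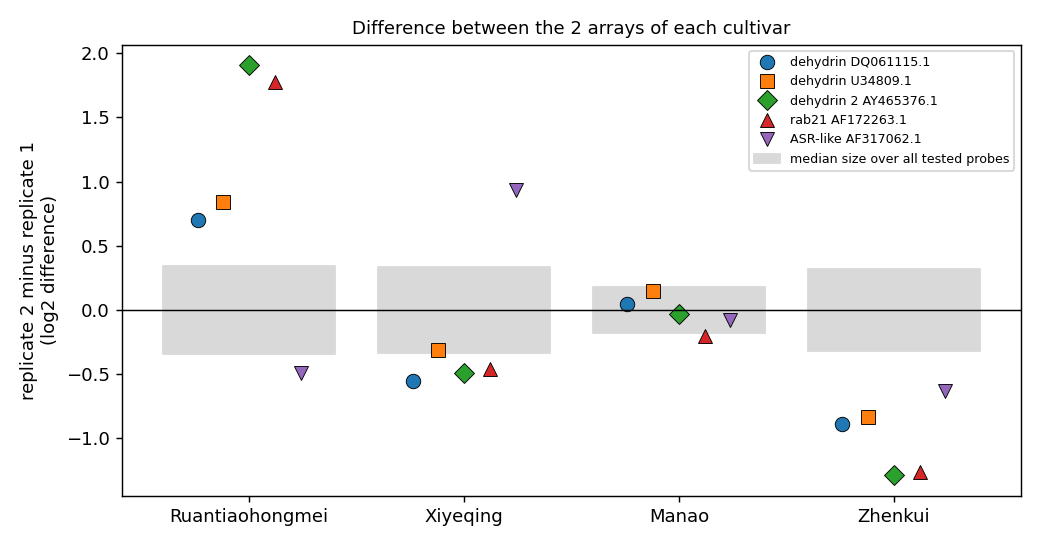
Replicate 2 minus replicate 1 on the log2 scale in each cultivar, 1 point per probe. Grey bands reach to the median size of that difference over all tested probes on either side of 0. The 4 dehydrin and rab21 probes all lie above the band in Ruantiaohongmei, dehydrin 2 and rab21 farthest, and below it in Zhenkui. The ASR-like protein does not follow them in Ruantiaohongmei and Xiyeqing.

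After each species' mean was taken out, the 4 dehydrin and rab21 probes correlated with each other at r = 0.871 to 0.995 over the 8 arrays, the highest between dehydrin 2 and rab21. Then 2 arrays were left out for each pair, those farthest from the median of 1 of its probes. The pairs did not all lose the same arrays. The lowest of these correlations became 0.658, and dehydrin 2 with rab21 stayed at 0.988. That pair kept Ruantiaohongmei replicate 2, the brightest P. mume array for both, so 0.988 does not show its correlation without that array. With the ASR-like protein the 4 dehydrin and rab21 probes correlated at only 0.113 to 0.231, and at -0.53 to -0.25 without the 2 farthest arrays. The points share arrays and scaling. Related transcripts can bind one another's probes, and sequences that would show how far these 5 overlap were not used here, so how separately these probes report their genes was not tested. Nor was it tested how well probes designed on almond and peach entries match the transcripts of either species.

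Among 213 other described proteins well above background on all 8 arrays, those most like each listed member over the 8 arrays were looked up. Most like DQ061115.1 was the dehydrin U34809.1 (r = 0.986). Next came beta-galactosidases GAL1 (AF184080.1, r = 0.961) and 3 (GU462128.1, r = 0.957), enzymes that trim galactose from cell wall polymers. Both were lower in P. mume, as was beta-galactosidase AY874412.1 (difference -1.995). Other beta-galactosidase probes were higher in P. mume: EF568776.1 (2.19), EF568777.1 (3.11), EU370208.1 (3.00) and AY987025.1 (3.065). Over all probes well above background on every array, described or not, 408 of 7467 exceeded 0.9 with DQ061115.1, so a pattern that mainly separates the species is common on this array. For rab21 that number was 31, and for the ASR-like protein 200. The described probes closest to rab21 were U34809.1 (r = 0.957), dehydrin 2 (r = 0.951) and p78RF (AF139496.1, r = 0.937). The 3 closest to the ASR-like protein were all probes for catalases, which break down hydrogen peroxide. They were AY962826.1 of apricot (r = 0.982), cat2 of peach (AJ496419.1, r = 0.961) and cat2 of sweet cherry (EF165590.1, r = 0.954). Whether these 3 probes report separate genes was not tested. Catalase probes also went the other way, lower in P. mume, among them cat1 of peach (AJ496418.1, difference -1.49) and catalase 1 of peach (AJ132444.1, -1.94). These correlations include the species difference and are descriptions of 8 arrays.

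The closest of them, catalase AY962826.1, was at 9.36 and 8.77 in Ruantiaohongmei, 8.58 and 9.11 in Xiyeqing, 8.34 and 8.46 in Manao and 7.77 and 6.93 in Zhenkui. Both probes had their 2 brightest arrays in Ruantiaohongmei replicate 1 and Xiyeqing replicate 2, in opposite order, and both were lowest in Zhenkui. In Manao replicate 2 was above replicate 1 for this catalase and below it for the ASR-like protein.

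**Figure D5:**
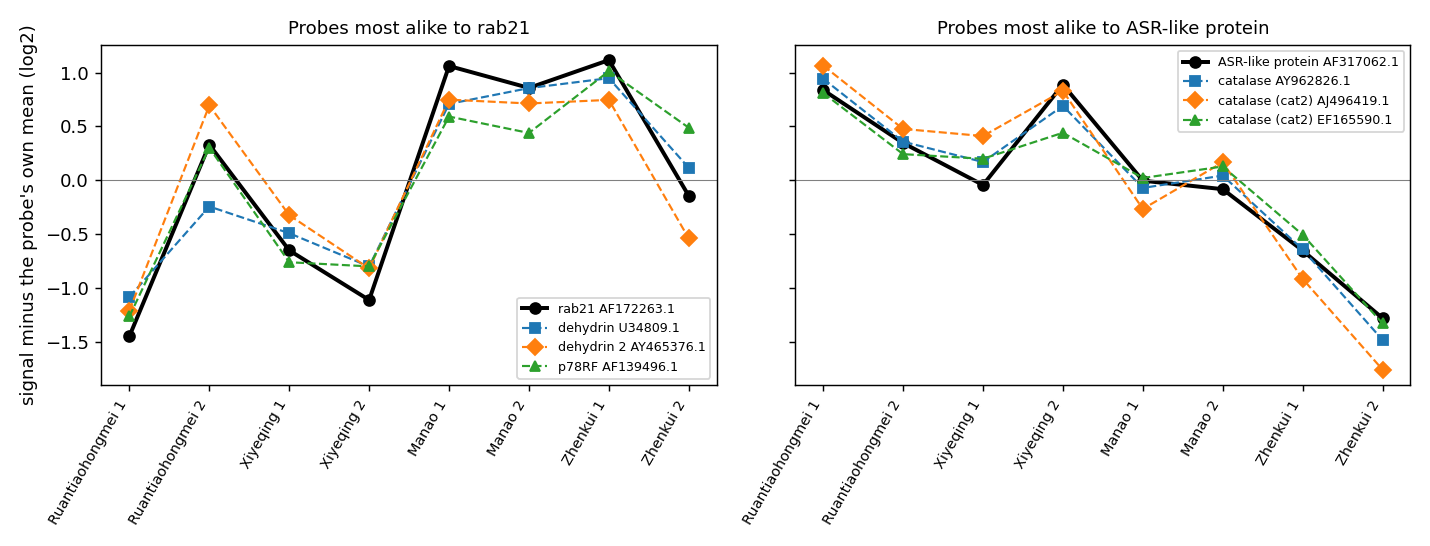
Signal of each probe minus its own mean over the 8 arrays, on the log2 scale, for rab21 and its 3 most alike described probes (left) and the ASR-like protein with its 3 (right). Lines only guide the eye. Rab21, both dehydrins and p78RF are lowest in Ruantiaohongmei replicate 1, and the ASR-like protein and 3 catalase probes are lowest in Zhenkui replicate 2.

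Of the enzymes that make abscisic acid, 1 was described, zeaxanthin epoxidase, an early enzyme on the route from carotenoids to abscisic acid. It had 2 probes, ZEAEPOX2 (AF159948.1) at 0.84 ± 0.86 in P. mume and 2.90 ± 0.19 in P. armeniaca, and ZEAEPOX (AF071888.1) at 0.75 ± 0.88 and 2.78 ± 0.23 in the same order (SD, n = 4 each). Their median difference was -2.04, against -0.11 over all tested probes. For abscisic acid breakdown and signalling, the 1 probe listed was a protein phosphatase 2C (EU117128.1), a class with members that hold abscisic acid signalling in check. Its description names only the class and does not tie this protein to abscisic acid. Its signal stood at -1.80 ± 1.88 in P. mume and -2.59 ± 0.53 in P. armeniaca (SD, n = 4 each). All probes in this and the next paragraph have descriptions only because the authors listed them at 2-fold or more on these same arrays, so their differences and calls are descriptions.

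Other proteins of temperature and oxidative stress did not share one direction. The measured ones were catalases, peroxidases, a thioredoxin, a metallothionein-like protein and heat shock proteins. None was described as a water stress protein, so other water stress proteins were not compared with the dehydrins. Of 16 measured probes, limma called 6 higher and 4 lower in P. mume and left 6 uncalled, with a median of 1.06. Of all tested probes, 36.7% were called, 15.1% higher and 21.6% lower, and nothing is read from the difference between these shares and the list's. The 4 brightest were catalase AY962826.1 (8.96 ± 0.34 in P. mume and 7.88 ± 0.70 in P. armeniaca, called higher), catalase cat2 of sweet cherry (EF165590.1, 8.14 ± 0.28 and 7.30 ± 0.67 in the same order, not called), cat2 of peach (AJ496419.1, 6.97 ± 0.31 and 5.58 ± 0.84, called higher) and thioredoxin H (AF323593.1, 6.52 ± 0.23 and 5.59 ± 0.23, called higher), all as SD with n = 4. Thioredoxins reduce disulphide bonds in other proteins. The catalases AJ496418.1 and AJ132444.1 were among the 4 called lower. The number of stress probes called higher was 3 without Ruantiaohongmei replicate 1 and 3 without Xiyeqing replicate 2, and up to 9 without Manao replicate 2. Of 2 green tissue probes, a photosystem I assembly protein (EF640703.1) was called higher in P. mume, by 0.92, and a chlorophyll a/b binding protein (AF039598.1) stood at -0.91 without a call.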

How the data were processed

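Scanner intensity was background-subtracted and spatially detrended by Agilent Feature Extraction 10.7.1.1, per the file headers. Version 8.1 is named in the submitters' processing notes. Deposited beside these by the authors were log2 values per array, log2 differences per comparison, and lists with a fold ratio of at least 2 and gene descriptions. No source used here states how those log2 values were normalized.

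Processed signals were taken to log2, outlier-marked and control spots left out, spots of a probe averaged, and each array's 75th percentile subtracted. A probe was tested if 1 or more cultivars had both arrays well above background (9125 probes). Tests used limma 3.58.1 (R 4.3.3). For calls outside the 5 members, species were compared with a random cultivar block, whose consensus correlation was 0.078. Cultivar contrasts came from 1 fit of 4 cultivar means. A call is a Benjamini-Hochberg adjusted p under 0.05. The fits were tested on simulated data. The number of arrays limits precision.

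Members and lists were chosen with earlier results of these data known. All 5 members are named. So are the 3 described proteins with the highest Pearson r to each of DQ061115.1, AF172263.1 and AF317062.1, and up to 4 of the brightest probes per list. The planned normexp alternative used median spot signals, since mean signals were not in the files. Other alternatives changed scaling, filter, block, variance model, value table and the arrays included.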

Additional observations from a re-analysis of the deposited data

Results flagged for a closer look

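For 2 of the 5 probes, 1 P. armeniaca array stood far from the other 3. In both it was Zhenkui replicate 2, on the low side. Its gap to the nearest other array was 0.909 of the species' whole range for the dehydrin DQ061115.1 and 0.972 for dehydrin 2 (AY465376.1), above Dixon's 95% critical value for 4 arrays. Chance alone passes that value in about 1 of 20 groups, and 10 groups were checked here, which share arrays. For rab21 the same array's gap was 0.795 of the range and for U34809.1 0.713, both under the critical value.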

How the results depend on the processing

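All 5 members kept the direction of their species difference in the 4 settings that can move it (normexp, median scaling, quantile normalization and the authors' deposited log2 values) and without any 1 array. Filters and blocks leave these differences as they are. The median of the 5 (-1.31) lay between -1.36 and -1.32 in those settings and between -1.49 and -1.15 without 1 array. The ASR-like protein was 0.72 with quantile normalization. Without 1 array, dehydrin 2 ran from -1.23 (without Ruantiaohongmei replicate 2) to -0.52 (without Ruantiaohongmei replicate 1). The number of members whose species did not overlap was 2 in those 4 settings and 2 to 4 without 1 array. The median of Ruantiaohongmei minus Manao (-1.45) ran from -1.94 without Ruantiaohongmei replicate 2 to -0.63 without replicate 1, and that of Xiyeqing minus Zhenkui (-1.18) from -1.60 without Zhenkui replicate 2 to -0.74 without replicate 1. With the replicate number as a block, the species median was -1.31 and no member was called in a cultivar contrast. Deviations of same-numbered arrays correlated at -0.176 to 0.393 between cultivars, so the numbers were not taken as pairs. The 3 tested members were called in no setting (lowest adjusted p = 0.455 by limma). Calls over all probes between the P. mume cultivars (54) fell to 28 with normexp and 9 when all 8 arrays had to be well above background, and lay between 22 and 54 without 1 array. Calls in the test of the cultivar pairs (18) were 11 and 5 in those 2 settings and 9 to 21 without 1 array. The cause was not tested.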
